A study of Sus scrofa with 9 samples.

Results

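In all, 10 genes of the Wnt pathway were followed in porcine valvular interstitial cells (PVICs), the fibroblast-like cells that maintain the aortic valve. They were taken by symbol and were chosen with earlier results of these data known: the ligands WNT5A, WNT5B and WNT2, the co-receptors LRP5 and LRP6, the secreted antagonists DKK1, DKK3 and SFRP1, and the target genes AXIN2 and LEF1. All 10 symbols were found among the 19535 gene rows of the count table, and 8 of the 10 had enough counts for testing. DKK1 and WNT2 did not.

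The cells came from wild-type pigs aged 4 to 5 months. By the labels, the leaflets were digested with type II collagenase and the surface endothelium was scraped off between digestions, whereas the study's methods name type I collagenase and no scraping. Control cells (NC) stayed in DMEM, OIM cells received osteogenic medium with added insulin, ascorbic acid at 50 µg/mL and sodium dihydrogen phosphate at 2 mmol/L, and bFGF cells received the same osteogenic medium plus 50 ng/mL basic fibroblast growth factor. bFGF was never given without OIM, so its effect in plain medium was not measured. The labels give 3 days of treatment, and the study's methods give a shorter time before RNA extraction. There were 3 libraries per group, and the totals over genes were 57075793 to 64723837 counts for control, 57682710 to 67371523 for OIM and 46773376 to 48270827 for bFGF. No label says that the 3 libraries of a group came from separate animals or cultures, so the p-values measure the spread between these libraries, which may be technical.

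Wnt proteins are secreted ligands that bind Frizzled receptors. When LRP5 or LRP6 is engaged as co-receptor, the complex that degrades beta-catenin is held back, and beta-catenin enters the nucleus and acts with TCF/LEF factors on target genes. WNT5A and WNT5B act mainly through branches that do not need beta-catenin, often with the receptor ROR2. In the aortic valve, Wnt ligands and LRP5 have been studied for their part in the osteogenic change of interstitial cells.

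AXIN2 and LEF1 are both known targets of beta-catenin and TCF/LEF factors, and the RefSeq start region of each held a match to the core that these factors bind. The region was taken as 250 bases before the annotated start and the first 50 bases of the transcript in Sscrofa11.1, the build of the files. It is shown 5′ to 3′ on the strand of the gene, with the match in capitals. The AXIN2 region is chr12:12343158-12343457 on the minus strand, and the LEF1 region is chr8:113824261-113824560 on the plus strand. The last sequence is a short window of the region of DKK1 around its match, which lies at chr14:97490347-97490353.
AXIN2: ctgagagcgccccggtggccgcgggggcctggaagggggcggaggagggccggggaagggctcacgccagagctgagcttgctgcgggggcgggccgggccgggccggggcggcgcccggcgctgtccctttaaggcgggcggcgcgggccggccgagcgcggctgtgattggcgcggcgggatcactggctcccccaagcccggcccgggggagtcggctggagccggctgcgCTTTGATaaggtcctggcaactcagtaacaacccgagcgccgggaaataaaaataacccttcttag
LEF1: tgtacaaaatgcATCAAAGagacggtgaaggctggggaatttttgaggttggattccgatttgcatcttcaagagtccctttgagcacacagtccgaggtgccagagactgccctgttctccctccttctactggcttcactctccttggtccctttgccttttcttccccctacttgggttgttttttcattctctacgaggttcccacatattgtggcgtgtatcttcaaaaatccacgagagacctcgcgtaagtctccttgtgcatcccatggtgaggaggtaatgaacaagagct
DKK1: cctcccaacgCTTTGAAatcccaaccc

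The core was searched on both strands as CTTTGAA and as CTTTGAT. In AXIN2 the match began 16 bases before the start (chr12:12343217-12343223), in LEF1 it lay on the opposite strand and began 238 bases before the start (chr8:113824273-113824279), and in DKK1 it began 235 bases before the start. Thus 3 of the 10 regions held 1 match each, while 1258 of all 19531 start regions (6.44%) held at least 1. By form, CTTTGAA was found in 4.14% of all regions and CTTTGAT in 2.42%. The AP-1 motif TGANTCA, which occurred in 6.06% of all regions, was found in 0 of the 10, so no core match overlapped an AP-1 match. A match is only a run of letters in this window and does not show binding. The annotated DKK1 transcript begins with ATG, so its start may be that of the coding sequence. Its distance may then not compare with those of AXIN2 and LEF1. The AXIN2 region was 73.0% G and C, the LEF1 region 48.3%, and the median of all regions was 58.7%. The expression of the 3 genes that share the core is described with the other members.

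Levels are counts-per-million values over the gene counts of a library (CPM), with library sizes scaled by TMM, a method that sets the sizes so that most genes do not move. A gene was called when its adjusted p was at most 0.05 and its absolute log2 fold change at least 0.5, by the quasi-likelihood test of edgeR, with p-values adjusted by Benjamini-Hochberg over 13662 genes. Each group serves in 2 of the 3 comparisons, so their results are not independent. In bulk RNA, fewer cells of a type and less RNA per cell cannot be told apart.

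The ligand WNT5A was the member that moved most with bFGF. Its 3 control libraries held 4.90, 6.80 and 6.08 CPM, its OIM libraries 6.42, 6.48 and 5.13 CPM, and its bFGF libraries 37.9, 37.5 and 38.3 CPM. The bFGF libraries lay far above both other groups, which overlapped each other. In counts, the other 6 libraries held 267 to 422 each and the bFGF libraries 1953 to 2034. WNT5A rose 6.30-fold in bFGF against OIM (log2 fold change 2.66, SE 0.10, adjusted p = 1.41e-14, edgeR's quasi-likelihood test) and 6.38-fold against control (2.67, SE 0.10, adjusted p = 1.04e-14, edgeR). Between OIM and control its log2 fold change was 0.018 (SE 0.11, adjusted p = 0.943, edgeR). The gene lies at chr13:37344684-37367215 on the minus strand, and an antisense transcript that overlaps it, LOC102162847, held few counts in every group.

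Its close relative WNT5B, which also works mainly outside the beta-catenin branch, rose less. It held 12.2, 13.6 and 11.0 CPM in control, 15.8, 14.8 and 14.7 CPM in OIM, and 24.9, 21.2 and 28.4 CPM in bFGF. The 3 groups did not overlap and stood in the order control, OIM, bFGF. WNT5B rose 1.65-fold in bFGF against OIM (log2 fold change 0.72, SE 0.097, adjusted p = 1.86e-06, edgeR) and 2.02-fold against control (1.02, SE 0.099, adjusted p = 1.56e-08, edgeR). OIM against control gave 0.30 (SE 0.10, adjusted p = 0.0552, edgeR) and was not called. FBXL14 overlaps WNT5B on the opposite strand and rose with it, from 18.8 to 21.6 CPM in OIM to 31.4 to 33.7 CPM in bFGF (log2 fold change 0.69, adjusted p = 6.51e-08, edgeR). The sources used here do not say whether the counting used strand, and the part of FBXL14 reads in the WNT5B counts (chr5:68627158-68731938, plus strand) was not tested.

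WNT2, a ligand of the beta-catenin branch, was at or near 0. It had 0 counts in 8 libraries and 1 count in OIM library 3. A count of 0 allows up to 3 counts, which is 0.0460 to 0.0577 CPM in these libraries, so a level up to that is not excluded where the count was 0.

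The co-receptors LRP5 and LRP6 are related proteins that pass the Wnt signal to the beta-catenin branch. LRP5 (chr2:4533721-4653997, minus strand) held 64.7, 68.4 and 64.2 CPM in control, 82.3, 75.1 and 77.5 CPM in OIM, and 55.9, 58.8 and 59.6 CPM in bFGF. The OIM libraries were the highest and the bFGF libraries the lowest, with no overlap between groups. The log2 fold change was 0.25 in OIM against control (SE 0.047, adjusted p = 0.001, edgeR), -0.43 in bFGF against OIM (SE 0.047, adjusted p = 1.01e-07, edgeR) and -0.18 in bFGF against control (SE 0.048, adjusted p = 0.00231, edgeR). All 3 passed the adjusted p but stayed under the fold limit, so LRP5 was not called in any comparison. When libraries were scaled by their totals alone, the last value was 0.045, of the opposite sign. The transcript LOC100738812 runs opposite LRP5 and averaged an estimated 0.629 CPM in OIM and 0.315 CPM in control.

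LRP6 (chr5:60149041-60318719, plus strand) was the more abundant co-receptor per kilobase of exon (41.0 against 12.4 CPM per kilobase in control). It held 384, 396 and 395 CPM in control, 372, 375 and 373 CPM in OIM, and 251, 245 and 240 CPM in bFGF. The bFGF libraries lay well below the other 6, and the OIM libraries lay just below the control libraries. LRP6 fell to 0.658 of its OIM level in bFGF (log2 fold change -0.60, SE 0.033, adjusted p = 2.39e-12, edgeR) and to 0.627 of its control level (-0.67, SE 0.033, adjusted p = 3.77e-13, edgeR). OIM against control gave -0.069 (SE 0.033, adjusted p = 0.19, edgeR). With library totals in place of TMM, which moves the median of all genes in bFGF against OIM to 0.219, the LRP6 value was -0.38 and under the fold limit.

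The antagonist DKK3 (chr2:47385244-47444664, plus strand) belongs to the dickkopf family, though unlike DKK1 it is not a regular blocker of LRP6. It held 464, 468 and 448 CPM in control, 455, 428 and 451 CPM in OIM, and 300, 298 and 298 CPM in bFGF. Control and OIM overlapped, and the bFGF libraries were lower and close together. DKK3 fell to 0.672 of its OIM level (log2 fold change -0.57, SE 0.035, adjusted p = 1.13e-11, edgeR) and to 0.649 of its control level (-0.62, SE 0.035, adjusted p = 2.65e-12, edgeR). With library totals alone the value against OIM was -0.35, again under the fold limit. DKK1, which blocks LRP5 and LRP6, had 0 counts in all 9 libraries over an annotated transcript of 801 bases (chr14:97487854-97490118, minus strand), and the limit given for WNT2 holds for it too. That transcript begins with ATG, so it may lack untranslated bases in which reads could fall.

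SFRP1 (chr17:10436414-10489773, minus strand), a secreted protein that binds Wnt ligands outside the cell, held 557, 596 and 567 CPM in control. It held 723, 678 and 678 CPM in OIM and 742, 776 and 671 CPM in bFGF. OIM and bFGF overlapped, and both lay above control. The log2 fold change was 0.27 in OIM against control (SE 0.046, adjusted p = 0.000347, edgeR), 0.075 in bFGF against OIM (SE 0.046, adjusted p = 0.153, edgeR) and 0.35 in bFGF against control (SE 0.046, adjusted p = 1.1e-06, edgeR). SFRP1 was not called in any comparison, the first and last because of the fold limit. In bFGF against OIM the value ran from 0.028 without bFGF library 2 to 0.13 without bFGF library 3, and was 0.30 with library totals alone. In the last 2 of these it passed the adjusted p (0.0119 and 2.96e-06, edgeR's quasi-likelihood test) but not the fold limit.

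LEF1 is a DNA-binding partner of beta-catenin and also one of its targets. It held 5.52, 6.47 and 5.31 CPM in control, 4.56, 5.68 and 5.50 CPM in OIM, and 21.3, 20.8 and 22.9 CPM in bFGF. Control and OIM overlapped, and every bFGF library was above 20 CPM. LEF1 rose 4.12-fold in bFGF against OIM (log2 fold change 2.04, SE 0.10, adjusted p = 8.72e-13, edgeR) and 3.76-fold against control (1.91, SE 0.10, adjusted p = 1.85e-12, edgeR). OIM against control gave -0.13 (SE 0.11, adjusted p = 0.483, edgeR). The gene lies at chr8:113824511-113944078 on the plus strand.

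AXIN2 is a scaffold of the complex that degrades beta-catenin and is widely read as a target of the beta-catenin branch. It held 9.98, 11.0 and 11.9 CPM in control, 12.3, 12.7 and 13.5 CPM in OIM, and 15.7, 15.5 and 12.7 CPM in bFGF. OIM lay above control, and bFGF library 3 fell within the OIM range. The log2 fold change was 0.23 in OIM against control (SE 0.096, adjusted p = 0.133, edgeR), 0.19 in bFGF against OIM (SE 0.096, adjusted p = 0.0908, edgeR) and 0.42 in bFGF against control (SE 0.096, adjusted p = 0.000744, edgeR). The last passed the adjusted p and not the fold limit, but without bFGF library 3 it was 0.51 and called. In bFGF against OIM the value was 0.28 without that library and 0.41 with library totals alone, and both passed the adjusted p (0.0167 and 0.000796, edgeR's quasi-likelihood test) but not the fold limit. CEP112, on the same strand, overlaps the 5′ part of AXIN2 (chr12:12311293-12343207, minus strand) and rose in bFGF (8.24 CPM in OIM and 14.4 CPM in bFGF, log2 fold change 0.80, adjusted p = 7.86e-07, edgeR). Its part in the AXIN2 counts was not tested.

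**Figure D1:**
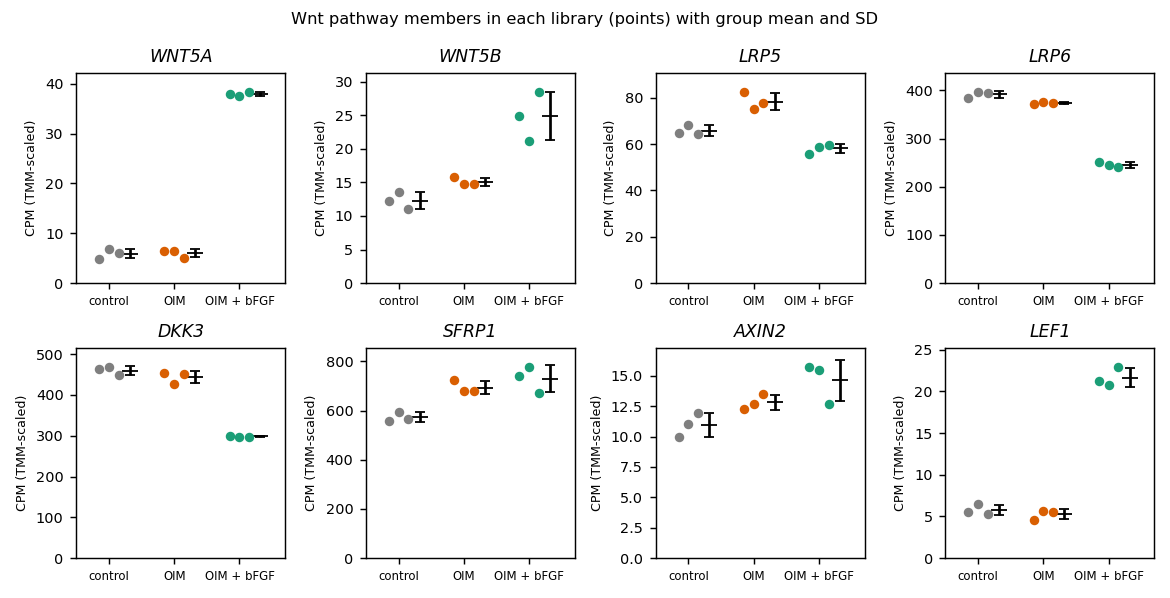
Level of the 8 tested members in each library (points, CPM with TMM-scaled library sizes, each axis from 0) with the group mean and SD beside them, for control, OIM and OIM with bFGF (3 libraries each). WNT5A and LEF1 stood apart in bFGF, at 37.5 to 38.3 CPM and 20.8 to 22.9 CPM, while LRP6 and DKK3 were lower there.

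Across the members, OIM against control gave 0 calls higher and 0 lower, where 1.49% of all genes tested were called higher and 0.864% lower (edgeR's quasi-likelihood test). DESeq2 also called 0 in either direction. By adjusted p alone, 2 of the 8 members were higher (LRP5 and SFRP1), against 13.6% of all genes in either direction. At an unadjusted p of 0.05 or less, WNT5B, AXIN2 and LRP6 (the last at 0.0497) were added, which makes 5 of the 8 members, against 26.2% of all genes in either direction. The groups did not overlap for 5 of the 8 (4 higher and LRP6 lower), against 28.7% of all genes.

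In bFGF against OIM, 3 of the 8 members rose (WNT5A, WNT5B and LEF1) and 2 fell (LRP6 and DKK3), with 17.7% of all genes called higher and 18.4% lower. The groups did not overlap for 6 of the 8, against 72.1% of all genes. In bFGF against control the calls fell on the same 3 and the same 2 members, with 18.9% of all genes called higher and 20.0% lower, and the groups did not overlap for all 8, against 73.7% of all genes. The median absolute log2 fold change of the 8 was 0.18, 0.59 and 0.65 in the 3 comparisons in turn, and that of all genes tested was 0.11, 0.39 and 0.43. The signed medians of the members were 0.12, 0.13 and 0.38. With library totals alone, bFGF against OIM gave 3 members higher and 0 lower (3733 of all genes higher and 1694 lower, where TMM gave 2420 and 2519), and bFGF against control gave 5 higher and 0 lower, with SFRP1 and AXIN2 added.

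**Figure D2:**
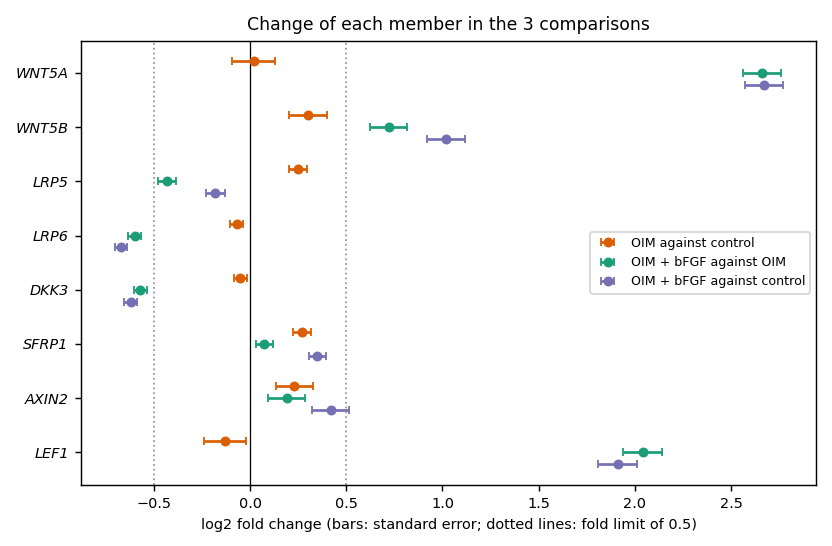
Log2 fold change of the 8 tested members (x axis, bars show the standard error) in the 3 comparisons, with dotted lines at the fold limit of 0.5. All OIM against control values lay inside the limit, while WNT5A (2.66) and LEF1 (2.04) lay far outside it in bFGF against OIM.

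Markers of the cells were read from the same table. The interstitial cell type of the labels was checked with 10 markers, all of them tested, of which COL1A1 averaged 27000, 25044 and 9885 CPM and VIM 6247, 5694 and 9008 CPM in control, OIM and bFGF. Their summed level was 65374 to 70787 CPM in control, 62041 to 64861 CPM in OIM and 39101 to 39467 CPM in bFGF. In bFGF against OIM, 4 of the 10 fell (COL1A1, COL1A2, COL3A1 and DCN) and 2 rose (VIM and POSTN). Of all genes, 18.4% were called lower and 17.7% higher there. The 8 endothelial markers summed to 72.6 to 74.4 CPM in control, 86.8 to 87.9 CPM in OIM and 167 to 177 CPM in bFGF. In bFGF, 6 of the 8 were called higher against OIM, where 17.7% of all genes were. Against control, 4 of the 8 were called higher, where 18.9% of all genes were. Most of the endothelial sum was ERG. Without it the sums were 20.6 to 23.0, 20.1 to 21.6 and 33.0 to 35.9 CPM. Besides ERG, the genes called higher against OIM were PECAM1 (11.8 CPM in OIM and 20.7 CPM in bFGF), CDH5 (5.80 and 8.24), TEK (0.740 and 1.52), KDR (0.169 and 1.17) and CLDN5 (0.0601 and 0.336), and those not called were TIE1 (1.85 and 2.03) and VWF (0.303 and 0.228). KDR and CLDN5 passed the filter on low counts only through their bFGF libraries, where they were high, so their calls rest partly on that filter. The part of endothelial markers in the Wnt results was not tested. Leukocyte markers summed to 12.8 to 16.0 CPM in control, 13.9 to 15.4 CPM in OIM and 8.23 to 8.96 CPM in bFGF. Most of that was CD14 (13.7, 13.5 and 7.68 CPM in turn), the only leukocyte marker called. PTPRC, CD68 and CSF1R were low and not called, and CD3E and ITGAM were not tested. Cardiomyocyte markers summed to no more than 3.56 CPM and epithelial markers to no more than 0.0990 CPM in any library.

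To set genes side by side, levels were divided by exon length, in CPM per kilobase of the merged exons. In control the order was DKK3 (168 ± 3.94, SD, n = 3), SFRP1 (135 ± 4.71), LRP6 (41.0), LRP5 (12.4), WNT5B (5.22), AXIN2 (2.08), WNT5A (0.799 ± 0.129) and LEF1 (0.635 ± 0.068). Among the 8 tested members, DKK3 and SFRP1 thus stood first and WNT5A and LEF1 last, while DKK1 and WNT2 had no counts in control. The order of WNT5A and LEF1 in control rests on the length used, since with the longest transcript as the length they stood at 0.843 and 0.842. In OIM, DKK3 (163 ± 5.40) and SFRP1 (163 ± 6.14) did not differ beyond their spread.

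In bFGF the order changed at both ends. SFRP1 (172 ± 12.6) stood above DKK3 (109 ± 0.373), followed by LRP6 (25.7), LRP5 (10.9), WNT5B (10.6 ± 1.53), WNT5A (5.11), AXIN2 (2.78) and LEF1 (2.39). LRP5 and WNT5B lay within their spread of each other. WNT5A passed AXIN2, and LEF1 came close to it. With the longest transcript as the length, AXIN2 stood at 3.25 and LEF1 at 3.17.

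Ratios of CPM per kilobase taken within a library showed how related members moved against each other. WNT5A per WNT5B was 0.154 ± 0.0245 in control, 0.126 ± 0.0142 in OIM and 0.491 ± 0.0673 in bFGF (SD, n = 3 each). LRP6 per LRP5 was 3.31, 3.22 and 3.43 in the control libraries, 2.52, 2.78 and 2.69 in OIM and 2.50, 2.33 and 2.25 in bFGF. The co-receptor ratio was thus lower in every treated library than in every control library. DKK3 per SFRP1 averaged 1.25, 0.999 and 0.639, and LEF1 per AXIN2 averaged 0.306, 0.236 and 0.870, in control, OIM and bFGF.

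Within their families, the members took very different shares of the summed CPM per kilobase. The 19 ligands of the table summed to 9.14 in control, 10.5 in OIM and 18.6 in bFGF. WNT5B gave most of it in every group (57.0%, 61.0% and 56.6%), and WNT5A went from 8.74% in control and 7.71% in OIM to 27.6% in bFGF. WNT9A, another ligand, went the other way, with 23.7%, 18.4% and 7.04%. WNT7A and WNT8B were at 0 in all libraries, and WNT1, WNT2, WNT3A and WNT10A never passed 3 counts.

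Among the secreted Frizzled-related proteins, SFRP1 gave 39.6% of the sum in control, 42.2% in OIM and 86.5% in bFGF. SFRP1 itself was not called. The difference in share came with SFRP2, which was at 377, 398 and 35.0 CPM and held 55.3%, 51.2% and 8.84%. The family sum was 341, 388 and 198 CPM per kilobase.

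LEF1 gave 2.62% of the 4 TCF/LEF factors in control, 2.24% in OIM and 14.2% in bFGF. TCF7L2, which held the largest share in control and OIM, went from 62.1% in OIM to 36.2% in bFGF, next to TCF7L1 with 36.1%. DKK3 made up 99.6%, 99.7% and 99.4% of the dickkopfs, of which DKK1 and DKK4 had 0 counts in all libraries. Shares add to a fixed total, so a higher share of one gene lowers those of others.

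**Figure D3:**
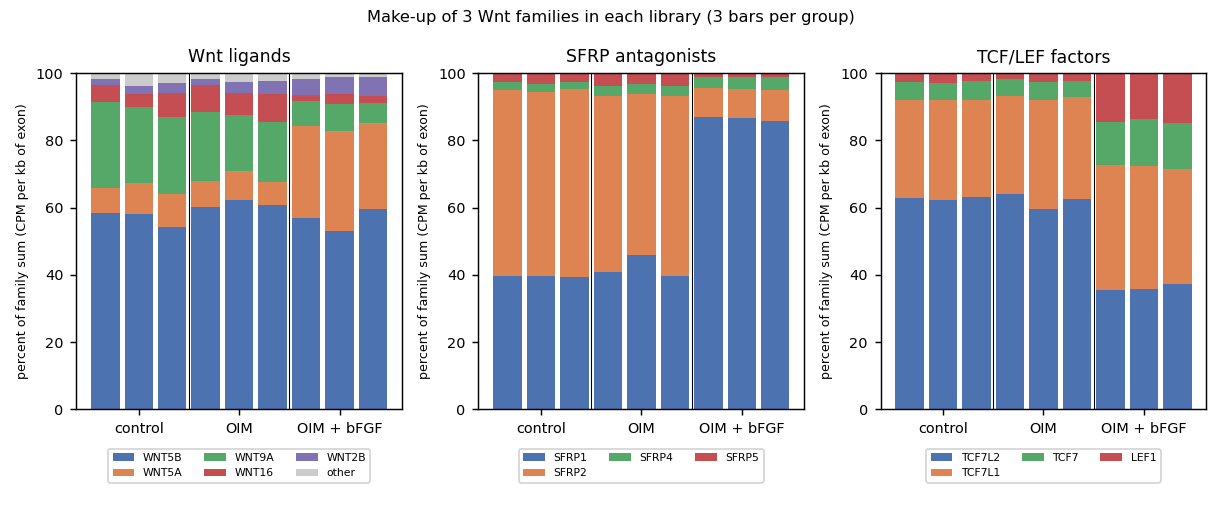
Share of each gene in the summed CPM per kilobase of exon of the Wnt ligands, the SFRP antagonists and the TCF/LEF factors (percent, 3 bars per group, 1 per library; FRZB, at a mean of no more than 0.138%, is not drawn). WNT5A widened to 27.6%, SFRP1 to 86.5% and LEF1 to 14.2% in the bFGF group means.

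The members stand among other genes of the pathway, read from a list of 96 genes in 9 roles. The list was chosen with earlier results of these data known, so its shares beside those of all genes are not a test. Of these, 95 were in the table (CELSR1 was not matched, and CCN4 stood under its older symbol) and 75 were tested. OIM against control called 8 higher and 1 lower, which is 12.0% of the 75 against 2.35% of all genes. The 8 became 5 without OIM library 3 and 0 at a fold limit of 1, and the 1 became 2 without control library 1 or OIM library 2. bFGF against OIM called 13 higher and 26 lower (52.0%, against 36.2%), and bFGF against control 15 higher and 23 lower (50.7%, against 39.0%). The medians of the list were 0.049, -0.25 and -0.14 on the log2 scale, and those of all genes tested -0.0019, -0.0029 and -0.016. With library totals alone the list split into 18 higher and 19 lower in bFGF against OIM and 20 higher and 18 lower in bFGF against control.

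In OIM against control, the called genes outside the 10 members included both ROR receptors, which bind WNT5A. ROR2 was at 31.7 CPM in control and 49.0 CPM in OIM (log2 fold change 0.63, adjusted p = 2.54e-08, edgeR), and ROR1 rose by 0.56. CCND1 (0.57), a cell-cycle gene, and CCN4 (0.64), a secreted matrix protein, are target genes and rose. So did PORCN (0.55), the enzyme that attaches the lipid that Wnt ligands need, and SFRP5 (0.55). The remaining 2 were NKD2 and SFRP4. The one that fell was WIF1, a secreted inhibitor that binds Wnt ligands, from 20.7 to 9.71 CPM (-1.09, adjusted p = 6.27e-09, edgeR).

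Among the ligands, bFGF against OIM gave 4 called higher and 3 lower of 8 tested (87.5%, against 36.2% of all genes). The 8 include WNT7B and WNT10B, which passed the filter on low counts only through groups where they were high. The share rests partly on that filter. WNT7B had 0, 5 and 4 counts in OIM, 1, 15 and 1 in control and 39, 22 and 31 in bFGF, and rose (adjusted p = 0.000978, edgeR). It would not have passed the filter on low counts without its bFGF libraries, so its call depends on the group where it was high. WNT2B, at 1.86 CPM in OIM and 5.73 CPM in bFGF, rose by 1.62 on the log2 scale against OIM and by 2.12 against control. WNT10B went from 12, 13 and 10 counts in OIM to 2, 1 and 1, too few for a fold. WNT9A and WNT16 were the other 2 that fell.

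Of the 16 receptors and co-receptors, 2 rose and 7 fell in bFGF against OIM (56.2% called, against 36.2% of all genes). The Frizzled FZD5 rose from 2.31 to 9.31 CPM (log2 fold change 2.01, adjusted p = 4.36e-10, edgeR), and ROR2 rose to 79.9 CPM. LRP6 was 1 of the 7 that fell, with FZD2, FZD6, FZD7, FZD8, FZD10 and ROR1. FZD10 had 38, 72 and 30 counts in OIM and 9, 2 and 0 in bFGF. The 10 Frizzleds together went from 122 to 73.9 CPM per kilobase.

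Of 10 tested antagonists and kremens, 1 rose and 6 fell (70.0% called, against 36.2% of all genes), DKK3 among the latter. SFRP2 fell from 398 to 35.0 CPM (log2 fold change -3.51, adjusted p = 2.59e-18, edgeR), and SFRP5 fell by 2.90. WIF1, the gene that fell in OIM, was the one that rose, to 32.5 CPM (1.74, adjusted p = 4.38e-14, edgeR). The R-spondin RSPO1, which strengthens Wnt signals at the receptor, had 93, 101 and 62 counts in OIM and 4, 9 and 8 in bFGF, and was the 1 called of 4 tested R-spondin genes and receptors. All 4 had negative values, and RSPO3 (-0.43) and LGR4 (-0.29) passed the adjusted p but not the fold limit.

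Inside the cell the shares called were 22.2% of the transducers, 50.0% of the nuclear effectors, 50.0% of the feedback and target genes and 37.5% of the planar polarity and non-canonical genes, against 36.2% of all genes. Of 9 transducers and destruction complex genes, APC rose (211 to 387 CPM) and DVL3 fell, and CTNNB1, which encodes beta-catenin, was not called at 769 and 612 CPM (-0.33). LEF1 and TCF7 rose and TCF7L2 and BCL9L fell among 8 nuclear effectors. Of 10 feedback and target genes, CCND1 (395 to 1121 CPM) and RNF43 (1.75), a ligase that removes Frizzleds, rose. NKD1 (-2.23), APCDD1 and CCN4, of which the first 2 restrain Wnt signalling, fell. AXIN2 was 1 of the 5 not called. Of 8 planar polarity and non-canonical genes, VANGL2 rose (0.68) and PRICKLE2 (-2.15) and DAAM1 (-0.89) fell. Against control PRICKLE2 fell by 2.03.

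**Figure D4:**
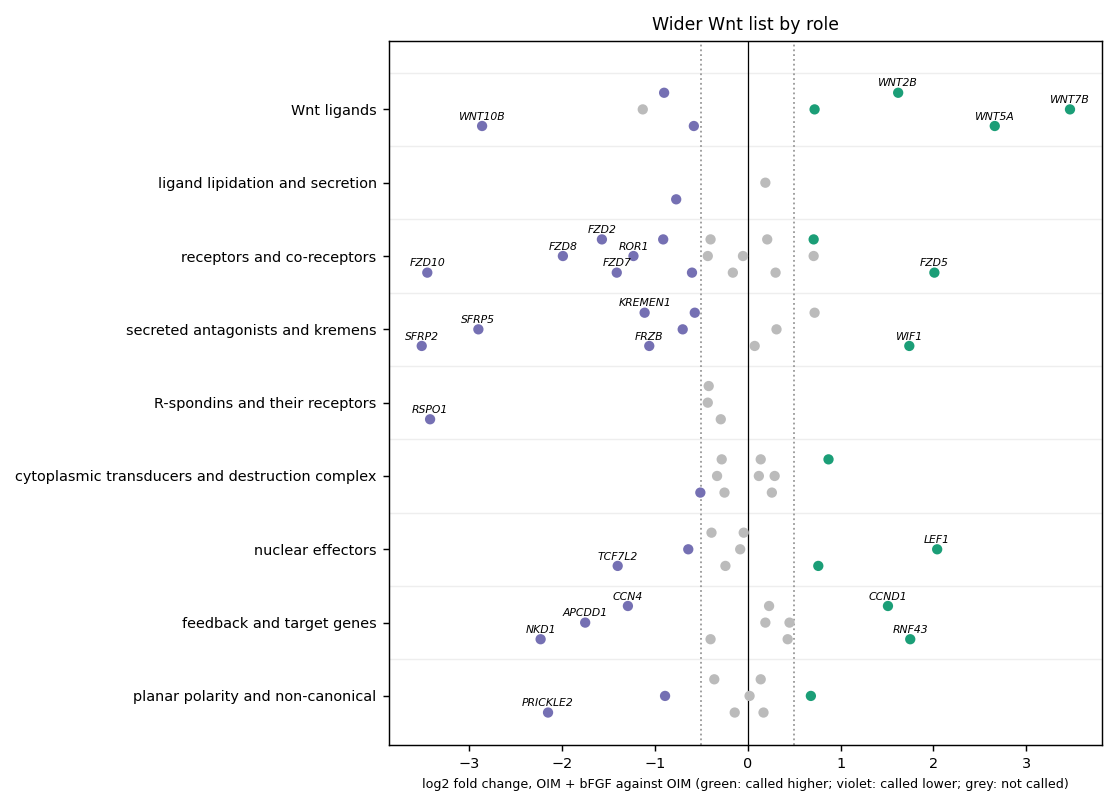
Log2 fold change in bFGF against OIM (x axis) of the 75 tested genes of the wider list, by role, with called genes coloured and those beyond 1 named (vertical position within a role only separates points). Calls lay on both sides, with 13 higher and 26 lower, and the plotted value of WNT10B rests on at most 2 counts per bFGF library.

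Circular RNAs, made when a splice joins the end of an exon back to an earlier start, were listed for LRP6 and DKK3 alone among the members. LRP6 had 6, all with both ends at annotated exon boundaries. The most read was exon 2 alone, chr5:60168451-60168844 on the plus strand (394 bases), with 70 junction reads in all. Its junction is shown with the last 15 bases of the exon in lower case and the first 15 in capitals, since these joined letters are what the reads were counted on.
LRP6 exon 2 circle: agatccttcgagtggCGGCCCCTTTGTTGC

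The exon 2 circle had 12, 10 and 11 reads in control, 6, 8 and 11 in OIM, and 4, 5 and 3 in bFGF. The bFGF libraries lay below all others, and control and OIM overlapped. In CPM the means were 0.190 ± 0.0280, 0.142 ± 0.0442 and 0.0761 ± 0.0192 (SD, n = 3 each), with an exact two-sided permutation p of 0.1 for bFGF against OIM, the smallest that 3 against 3 allows. The LRP6 gene was also lower in bFGF. Per 1000 LRP6 counts the circle stood at 0.485 ± 0.0796, 0.380 ± 0.118 and 0.310 ± 0.0766 (exact permutation p = 0.5 for bFGF against OIM and 0.1 for bFGF against control, n = 3 each). By this measure bFGF overlapped OIM but not control. All circular RNAs of the table together averaged 156, 151 and 119 CPM. The circle of exons 5 to 8 (chr5:60241617-60249461) had 7, 4 and 10, then 4, 3 and 2, then 2, 0 and 6 reads, with all groups overlapping.

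A non-coding transcript, LOC100738196, runs opposite LEF1 and overlaps the start of the gene (chr8:113824511-113825271). On the scale of the gene libraries its estimated CPM were 0.0179, 0.0658 and 0.0165 in control, 0.203, 0 and 0.0518 in OIM, and 0.364, 0.452 and 0.417 in bFGF. It was thus highest in the group in which LEF1 rose, with no overlap (exact two-sided permutation p = 0.1 against either other group, n = 3 each, the smallest possible). The transcript was flagged because its bFGF libraries lay above control, so the lack of overlap with control was fixed by that choice. Its values rest on only 19.5 to 23.5 estimated counts per bFGF library, and whether reads of LEF1 entered them was not tested.

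**Figure D5:**
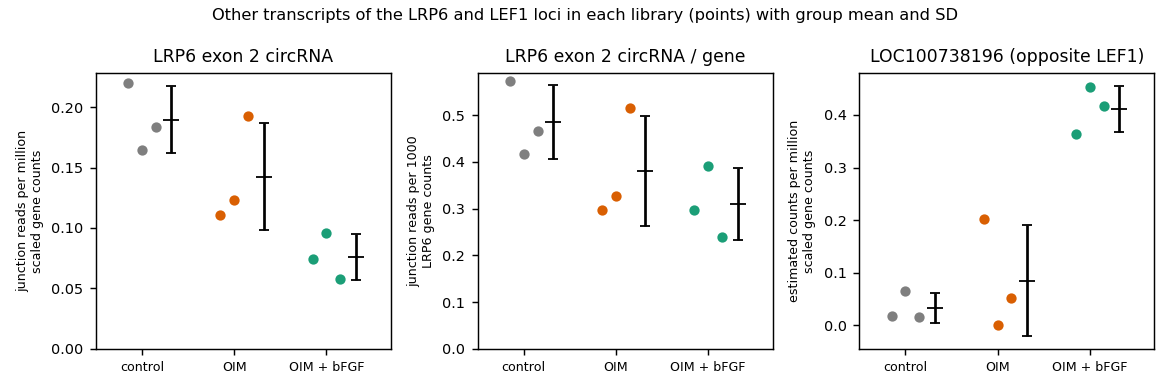
Exon 2 circle of LRP6 in CPM (junction reads on the scale of the gene libraries) and per 1000 LRP6 counts, and the transcript opposite LEF1 in estimated CPM, by library (points) with the group mean and SD. The circle in CPM was lowest in bFGF (0.0577 to 0.0961), the circle per LRP6 count overlapped between OIM and bFGF, and the transcript opposite LEF1 was highest in bFGF (0.364 to 0.452).

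For each tested member, the genes with the most similar course over the 9 libraries were sought among 11846 genes of at least 1 CPM, by the root mean square difference of centred log2 CPM. WNT5A was nearest to OLFML2A (0.11) and ST8SIA4 (0.16), LEF1 to ANKH (0.11) and LOC110261487 (0.12), and WNT5B to SLC25A33 (0.096) and RRP1B (0.10). LRP6 was nearest to SEC23A (0.023) and AVIL (0.027), and DKK3 to TAX1BP1 (0.017) and TMBIM6 (0.019). LRP5 was nearest to MPRIP (0.032) and KIF1C (0.037), SFRP1 to SPG7 (0.044) and PPFIA1 (0.050), and AXIN2 to SPATA5L1 (0.058) and FARP2 (0.060). No member was among the nearest genes of another. Only the nearest genes given here were kept, so that does not show whether members moved alike.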

How the data were processed

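RNA of 9 PVIC libraries was sequenced, 3 each for control, OIM and bFGF, grouped by the sample titles. The authors deposited 1 table of counts that were not normalized. It holds whole counts of 19535 genes, the authors' estimated count of each of 9888 non-coding transcripts (44.6% of values not whole), for which no tool is tied to the table in the sources used here, and junction counts of 6179 circular RNAs. It has 19 further columns without a name, which hold 0 values and were not used. The sources name different steps. The labels give a stranded total RNA kit with ribosomal RNA removal and the submitters' processing notes name Trimmomatic, HISAT2 and StringTie, whereas the study's methods give poly-A selection, Cutadapt and STAR. The build is Sscrofa11.1 in both. Poly-A selection would lower circular and other RNAs without a tail, and which kit was used is not settled here. The counting program is not given in the sources used here.

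The test across genes was that of edgeR 4.0.16, run under R 4.3.3 on the gene counts (filterByExpr, TMM, quasi-likelihood fit of 3 groups, 6 residual degrees of freedom, adjusted over 13662 genes). TMM factors were 0.937 to 0.967 for control and OIM and 1.10 to 1.11 for bFGF, and the common coefficient of variation was 0.0602. The fit was tested on simulated data. Replicates differed by more than sampling noise (mean chi-square per gene 4.62 to 18.8, highest for OIM library 2), so none was counted as a copy. That does not tell separate cultures from repeat preparations of the same culture. Alternatives were DESeq2 1.42.0, median-of-ratios factors, scaling by totals alone, no filter or a stricter one, other fold limits, fits of 2 groups, a replicate block and leaving out each library. Single values of circular and non-coding RNAs were compared by exact permutation tests. Gene models and start regions came from RefSeq. Protein sequences were not used here. The members and the gene lists were chosen with earlier results of these data known. All members are named, and of the wider list, per comparison and direction, up to 6 called genes with the largest change whose higher group averaged 10 counts or more. Other genes of that list were named after their values were seen.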

Additional observations from a re-analysis of the deposited data

Results flagged for a closer look

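Both values here come from non-coding transcripts that overlap a member on the opposite strand, which the comparisons of the members do not use. LOC100738812, opposite LRP5, averaged an estimated 0.629 ± 0.233 CPM (SD, n = 3) in OIM against 0.315 ± 0.0691 CPM (SD, n = 3) in control, with no overlap between the groups and an exact two-sided permutation p of 0.1, the smallest that 3 against 3 allows. Its bFGF libraries averaged 0.380 ± 0.117. LOC100738196, opposite LEF1, averaged 0.411 ± 0.0444 in bFGF and 0.0334 ± 0.0281 in control (SD, n = 3 each, exact permutation p = 0.1). Its OIM libraries averaged 0.0849 ± 0.105. The part of reads shared with the member on the other strand was not tested.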

How the results depend on the processing

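Of the alternatives to the 24 member fold changes, 373 values kept their direction and side of the threshold, 4 changed sign, 3 became calls and 4 were lost as calls. Of the counts of calls, 291 stayed within 1.5 times and 33 did not. Of the member levels, 32 moved by less than the SD of the group and 28 by more, under library totals or the longest transcript as the length. Library totals alone in place of TMM moved the medians of all genes in bFGF to 0.219 against OIM and 0.208 against control. With them, 0 members were lower in either bFGF comparison (LRP6 -0.38 against OIM and -0.45 against control, DKK3 -0.35 and -0.40), 5 were higher against control (SFRP1 0.57 and AXIN2 0.64 were added), and LRP5 against control turned to 0.045. All genes called higher became 3733 against OIM (1694 lower) and 3931 against control (1841 lower). Without a fold limit, members called higher were 2 in OIM against control and 5 in bFGF against control. The wider list then gave 16 higher and 2 lower in OIM against control, 23 higher and 38 lower in bFGF against OIM, and 26 higher and 33 lower in bFGF against control. All genes gave 1051 higher and 802 lower, 4620 and 4583, and 4709 and 4881 in the 3 comparisons in turn. With a fold limit of 1, 0 members were lower in either bFGF comparison. The wider list then gave 0 higher in OIM against control, 8 higher and 16 lower in bFGF against OIM, and 9 higher and 14 lower in bFGF against control. All genes gave 63 and 28, 1216 and 1245, and 1339 and 1417. Leaving out each library gave 5 to 9 higher (5 without OIM library 3) and 1 to 2 lower (2 without control library 1 or OIM library 2) on the wider list in OIM against control, and turned WNT5A there, which was not called, to -0.098, -0.029 and -0.041 without control library 1, OIM library 1 or OIM library 2 (range -0.098 to 0.13). AXIN2 against control was 0.51 and called without bFGF library 3.

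The correlations of same-numbered libraries' deviations ran from -0.032 to 0.0035, so no effect shared by same-numbered libraries was seen. That does not settle whether they were paired by design. With the replicate number as a block, 0 members were called in OIM against control and 3 higher and 2 lower in both bFGF comparisons, as without it, and 195 genes were higher and 114 lower in OIM against control. Intervals and limits of 3 counts cover counting error only. Depth limits WNT2, DKK1 and the circular RNAs, and the fold limit of 0.5 lies close to the LRP6 and DKK3 values.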
